A study of Mus musculus with 12 samples.

Results

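Mouse circumvallate papilla (CVP) organoids of 2 clones labelled Foxe1 knock-out, clone 2.10 and clone 2.9, were compared with each other, each measured in 2 duplicate libraries. The 4 libraries were chosen by their clone labels alone, out of 12 in the series, and of 55367 genes in the count table the 16015 with at least 10 counts in at least 2 of the 4 were tested. Organoids are 3-dimensional epithelial cultures, here from mouse tongue, and the circumvallate papilla is the large taste papilla at its back. The comparison asks how far 2 clones of 1 line that carry the same genotype label differ. The other groups used are a wild type CVP culture with no listed modification (2 libraries) and the foliate papilla (FoP) clones 2.4 and 2.5, also labelled Foxe1 knock-out (2 libraries each). A wild type foliate culture (2 libraries) enters the estimate of the spread and the counts over the whole series. The labels give every culture as mixed cell types of tongue and the knock-outs as genetically modified. The edit itself, the strain, the age of the animals and the passage of the cultures are not given in the sources used here.

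Each clone is a single clone, and nothing in the labels says that its duplicates were separate cultures. The p-values therefore measure the spread between duplicates, which may be technical, and a difference between the clones cannot be told apart from a difference in their edits, their passage or the culture dish. With 2 libraries against 2, an exact permutation test could not go below p = 0.333, so calls rest on a model fitted over all genes (the quasi-likelihood test of edgeR, Benjamini-Hochberg adjusted p under 0.05). Levels are CPM (counts scaled to a library size of 1000000), given for duplicate 1 and then duplicate 2, and differences are log2 values of clone 2.10 minus clone 2.9 ± SE. They are not corrected for transcript length, so levels are compared within a gene and not between genes.

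The forkhead factor encoded by Foxe1 is needed in the embryo to form the thyroid and to close the palate. Back-of-tongue epithelium holds taste cells, stratified keratinocytes and the ducts of the minor salivary glands that open under the papilla, and organoids from it can carry genes of all of these. Clustered protocadherins, a family of cell-surface adhesion proteins described below, are known from neurons for choosing a few of many alternative promoters in each cell.

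The libraries held 61561428 and 61747742 counts in clone 2.9 and 64493571 and 63338079 in clone 2.10. The epithelial markers Epcam, Cdh1, Krt5, Krt14 and Trp63 were high in all 4 libraries and were not called. Epcam was at 1025 and 1143 CPM in clone 2.9 and 1042 and 1127 in clone 2.10. Krt8, also in this marker set, was called higher in clone 2.10 and is given below with the genes of simple epithelium. Of the markers of other cells, Ptprc, Csf1r and Adgre1 of immune cells, Cdh5, Erg and Cldn5 of endothelium and Lum, Dpt and Twist2 of fibroblasts were at 0 in all 4 libraries. Other genes of these lists had counts: the summed level was 81.3 to 105 CPM in clone 2.9 and 86.2 to 128 in clone 2.10 for 18 immune genes (0 of 6 tested called), 124 to 142 and 157 to 180 for 12 endothelial genes (1 of 6 higher, Eng), and 296 to 332 and 342 to 451 for 18 fibroblast genes (2 of 10 higher). Their part in the results was not tested. Over all genes tested, 5.82% were called between the clones. Duplicates were not copies of 1 library. Chi-square per degree of freedom, the variance between duplicates relative to that of counting noise, was 19.15 in clone 2.9 and 39.63 in clone 2.10. The correlation of log2 CPM across genes was 0.991 between the duplicates of clone 2.9, 0.989 between those of clone 2.10 and 0.980 to 0.982 between libraries of different clones; genes are not independent replicates.

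Between the clones, 932 genes were called, 5.82% of those tested. Of these, 498 were higher in clone 2.10 (3.11%) and 434 were lower (2.71%), and 342 (2.14%) differed by more than 2-fold, 175 higher and 167 lower. Most differences were small: the called genes had a median absolute log2 difference of 0.67, with quartiles of 0.37 and 1.56, beside a median of 0.12 over all genes tested. The same libraries gave 8351 calls for clone 2.10 against wild type (52.1%) and 7962 for clone 2.9 against wild type (49.7%), 2 comparisons that share the wild type libraries. Both pairs with wild type set modified clones against a culture not labelled as a clone.

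The size of the count rested on the estimate of the spread, which all 6 groups of the series shared. Clone 2.10 had the highest chi-square per degree of freedom between duplicates, 39.63 against 7.97 to 19.15 in the other groups. A shared estimate may be too small for this clone, which was not tested. Fits with 1 library left out, used below, leave the duplicate numbers uneven between the clones. They cannot separate clone from duplicate number. Fitted on the 4 libraries alone the count was 416, and without duplicate 1 or duplicate 2 of clone 2.9 it was 560 and 599. Of the 932 genes, 363 were called in the same direction with each of the 4 libraries left out in turn, 193 higher and 170 lower. A gene named below is one of these 363 unless an adjusted p without a library is given beside it or its paragraph says otherwise.

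**Figure D1:**
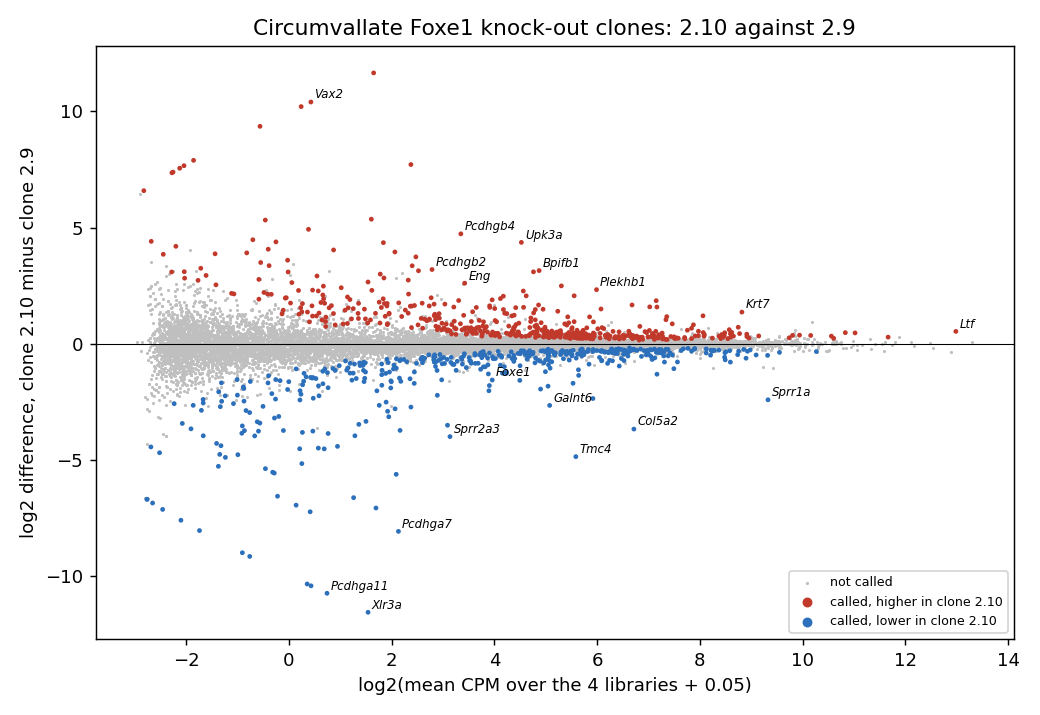
Difference between the clones (log2, clone 2.10 minus clone 2.9) against the mean level over the 4 libraries for 16015 genes, with called genes in red (498 higher in clone 2.10) and blue (434 lower). Most called genes lie within a narrow band around 0, and a few genes with low mean levels lie far out on either side, where a clone has no or almost no counts and the fitted size depends on the prior count.

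Foxe1 was itself 1 of the called genes. It stood at 23.6 and 22.7 CPM in clone 2.9, at 7.3 and 8.45 in clone 2.10 and at 15.4 and 15.9 in wild type, so that wild type lay between the clones and no libraries of different groups overlapped. The difference was -1.55 ± 0.10 (adjusted p = 1.96e-07). Both clones thus had reads over this single-exon gene (chromosome 4, 46343609 to 46346412, plus strand, GRCm38), and the count does not show whether a protein was made. The foliate clones differed in the same gene, at 22.4 and 20.0 CPM in clone 2.4 and 11.2 and 11.5 in clone 2.5.

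The 12 genes with the largest difference in each direction were taken from the calls with a mean log2 CPM of 2 or more in which the clones did not overlap. Higher in clone 2.10 were Upk3a, Pcdhgb2, Bpifb1, Dkk3, Eng, Krt90, Plekhb1, Sdk2, Matn4, Sulf1, Slc15a2 and Loxl3. Lower were Tmc4, Sprr2a3, Col5a2, Galnt6, Sprr1a, Il33, Susd2, Aqp4, Tmprss11b, Il1rl2, Padi4 and Stmn2. These differences ran from 1.98 to 4.36 and from -4.85 to -1.70.

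The windows around the annotated start of 4 of these genes are shown because each is far apart between the clones and each is poor in CpG, the dinucleotide at which mammalian DNA is methylated. Since the 4 were picked for this, their low CpG counts are no result, and methylation was not measured. Each window runs from 250 bases before to 50 bases after a RefSeq start (GRCm38.p6), 5′ to 3′ on the gene's strand, with CpG in capitals. The Upk3a window (chr15:85016891-85017190, plus strand) holds 9 CpG, that of Bpifb1 (chr2:154190568-154190867, plus strand, the first of 2 listed) holds 3, that of Tmc4 (chr7:3677504-3677803, minus strand) holds 6 and that of Sprr2a3 (chr3:92285054-92285353, plus strand) holds 1.
Upk3a: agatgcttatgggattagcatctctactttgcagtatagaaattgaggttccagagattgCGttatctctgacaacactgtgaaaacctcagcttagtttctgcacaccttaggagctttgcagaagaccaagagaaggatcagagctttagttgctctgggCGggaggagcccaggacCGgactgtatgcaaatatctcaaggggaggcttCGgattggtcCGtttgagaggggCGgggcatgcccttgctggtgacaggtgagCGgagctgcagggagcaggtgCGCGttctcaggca
Bpifb1: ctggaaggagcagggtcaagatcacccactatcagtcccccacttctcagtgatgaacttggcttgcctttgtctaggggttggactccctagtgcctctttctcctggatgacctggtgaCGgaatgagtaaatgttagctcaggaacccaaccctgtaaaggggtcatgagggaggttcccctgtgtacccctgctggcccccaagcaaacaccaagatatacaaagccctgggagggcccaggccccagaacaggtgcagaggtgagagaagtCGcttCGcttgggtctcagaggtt
Tmc4: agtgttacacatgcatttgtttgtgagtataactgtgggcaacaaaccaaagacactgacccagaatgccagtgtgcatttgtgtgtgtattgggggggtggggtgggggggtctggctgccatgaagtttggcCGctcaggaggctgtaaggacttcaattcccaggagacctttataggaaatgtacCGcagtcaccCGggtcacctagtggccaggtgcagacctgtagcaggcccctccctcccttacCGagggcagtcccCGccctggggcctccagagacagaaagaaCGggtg
Sprr2a3: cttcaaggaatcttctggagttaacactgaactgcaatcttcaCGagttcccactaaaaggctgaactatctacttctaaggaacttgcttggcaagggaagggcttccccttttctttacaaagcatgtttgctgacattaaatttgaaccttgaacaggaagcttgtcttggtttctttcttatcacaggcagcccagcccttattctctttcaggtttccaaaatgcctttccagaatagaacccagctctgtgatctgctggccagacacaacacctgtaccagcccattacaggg
Over the 11193 tested genes with a window the median was 20 CpG per window, with quartiles of 12 and 28. The median was 11 over the 126 genes called higher by more than 2-fold with a window, and 7.5 over the 100 called lower. A forkhead core, TGTTTAC on either strand, was found in 2 of the 126 windows (1.59%), in 5 of the 100 (5.0%) and in 286 of all 11193 (2.56%). Calls were made in 2.92% of genes under 1 CPM and in 8.08% of those between 1 and 10 CPM, and the part of expression level in these medians was not tested.

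Upk3a, a uroplakin of the apical plaques of urothelium, was the gene with the largest higher difference under that rule. It stood at 2.19 and 2.06 CPM in clone 2.9 and 32.5 and 55.2 in clone 2.10, a difference of 4.36 ± 0.25 (adjusted p = 2.15e-06). Wild type, at 5.57 and 5.5 CPM, was close to clone 2.9 and far below both libraries of clone 2.10. Tmc4, a chloride channel studied in salt taste, was the largest lower one. Its levels were 95.0 and 90.4 CPM in clone 2.9, 3.36 and 3.07 in clone 2.10 and 69.5 and 67.9 in wild type, with a difference of -4.85 ± 0.07 (adjusted p = 6.07e-15). Here wild type was close to clone 2.9 as well, and clone 2.10 was 28.8-fold below clone 2.9. Of the annotated exon length of Tmc4, 15.07% overlaps other genes.

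Col5a2, a chain of the fibrillar collagen type V, was at 204 and 185 CPM in clone 2.9 and 15.9 and 14.8 in clone 2.10, beside 133 and 132 in wild type (-3.66 ± 0.15, adjusted p = 1.49e-06). Galnt6, an enzyme that starts mucin-type O-glycosylation, was at 59.6 and 56.5 CPM in clone 2.9, 10.1 and 8.46 in clone 2.10 and 107 and 115 in wild type (-2.65 ± 0.10, adjusted p = 3.67e-09). In both genes clone 2.10 was the low culture and the duplicates lay close together.

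Dkk3, a secreted protein of the dickkopf family, was at 5.45 and 5.87 CPM in clone 2.9 and 48.0 and 48.9 in clone 2.10, with wild type between them at 13.7 and 17.0 (3.10 ± 0.17, adjusted p = 7.7e-07). Eng, endoglin, a TGF-beta co-receptor best known from endothelium, was at 2.79 and 3.21 CPM in clone 2.9, 20.4 and 16.3 in clone 2.10 and 3.62 and 3.29 in wild type (2.61 ± 0.14, adjusted p = 3.86e-08). Among endothelial markers Cdh5, Erg and Cldn5 were at 0 in both clones. Of the 6 tested, 4 had differences above 0 and Eng was the 1 called.

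Matn4, a matrilin of the extracellular matrix, and Sdk2, a sidekick adhesion molecule, were higher in clone 2.10 and lowest in wild type. Matn4 was at 18.3 and 17.8 CPM in clone 2.9, 85.9 and 65.6 in clone 2.10 and 3.59 and 4.77 in wild type (2.07 ± 0.14). Sdk2 was at 7.83 and 8.36 CPM in clone 2.9, 42.6 and 35.5 in clone 2.10 and 1.89 and 1.5 in wild type (2.27 ± 0.16). For both genes the wild type values were below those of either clone.

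Of the 24 genes, the calls of Aqp4, Sprr1a, Stmn2 and Tmprss11b were lost when 1 library was left out. Aqp4, a water channel, was at 47.9 and 46.6 CPM in clone 2.9 and 7.96 and 16.6 in clone 2.10 (-1.94 ± 0.31), with an adjusted p of 0.0774 without duplicate 1 of clone 2.9 and 0.0691 without duplicate 2. Stmn2, a microtubule regulator of neurons, was at 73.7 and 67.4 CPM in clone 2.9 and 20.9 and 22.7 in clone 2.10 (-1.70 ± 0.27), and its adjusted p was 0.0724, 0.0519 and 0.0687 without duplicate 1 of clone 2.9, duplicate 2 of clone 2.9 and duplicate 1 of clone 2.10. Tmprss11b, a serine protease of squamous epithelium, was at 57.3 and 45.4 CPM in clone 2.9 and 12.4 and 16.7 in clone 2.10 (-1.82 ± 0.25), with an adjusted p of 0.0566 without duplicate 1 of clone 2.10. In all 4 genes, Sprr1a included, the duplicates of the clones did not overlap, but the rule that chose the 24 genes required this.

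**Figure D2:**
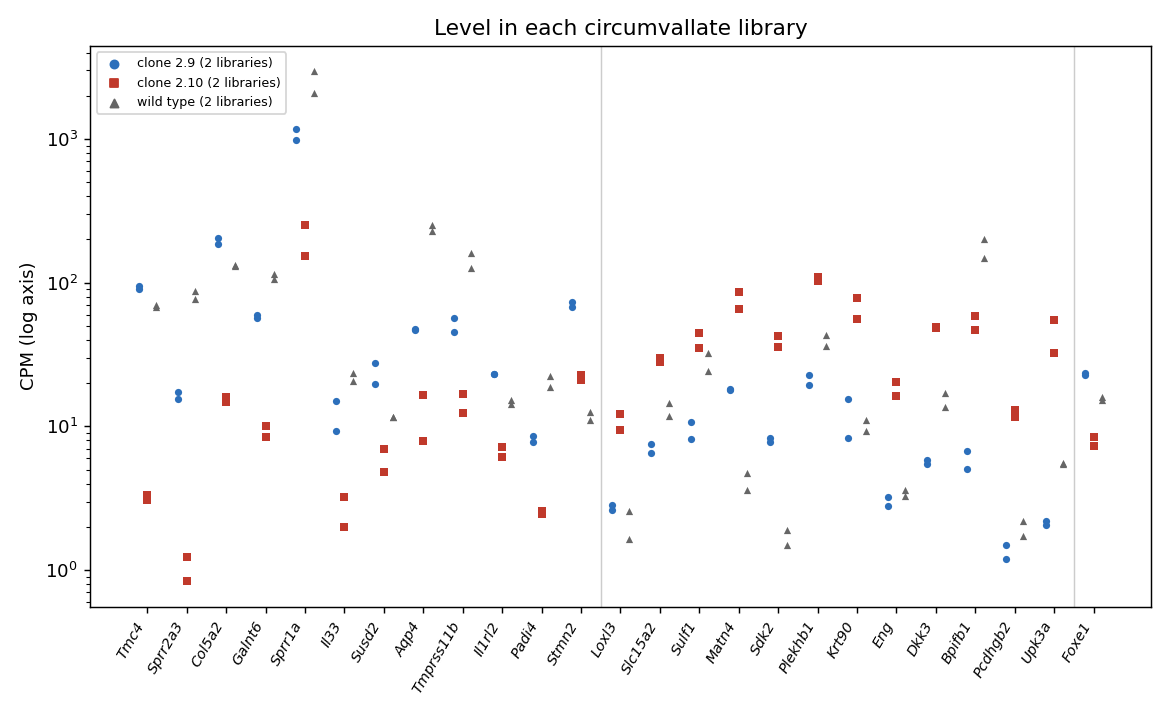
Level (CPM, log axis) of the 12 genes with the largest lower and the 12 with the largest higher difference, and of Foxe1, in the 6 CVP libraries, 1 point per library. Clones 2.9 (blue circles) and 2.10 (red squares) are apart in each gene, which the rule required of all but Foxe1. Wild type (grey triangles) is near clone 2.9 in some, such as Tmc4 and Upk3a, and outside both clones in others, such as Sdk2 and Aqp4.

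Several genes were on in one clone and near 0 in the other. By the rule of at most 3 counts in each duplicate of one clone and at least 100 in each of the other, 6 genes were near 0 in clone 2.10 and 3 in clone 2.9, of which 2 are predicted genes. Xlr3a, an X-linked gene of a lymphocyte-regulated family, held 358 and 374 counts in clone 2.9 and 0 and 0 in clone 2.10, at least 125-fold lower when 0 is replaced by the floor, 3 counts in a library. Wild type held 172 and 201 counts. Xlr3b, nearby on the X chromosome, held 185 and 148 counts in clone 2.9, 0 and 0 in clone 2.10 and 8 and 14 in wild type (at least 57.0-fold lower in clone 2.10). Xlr3a and Xlr3b are close copies, so reads may be split between them, and both were at 0 in clone 2.10.

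Rps4l, a copy of the ribosomal protein gene Rps4x, held 200 and 116 counts in clone 2.9, 0 and 0 in clone 2.10 and 305 and 354 in wild type (at least 54.0-fold lower in clone 2.10). It was also at 0 and 0 in the foliate clone 2.4 and at 84 and 60 counts in clone 2.5. As a copy of another gene it is reported as uncertain. Ccl28, a chemokine of mucosal and glandular epithelium, held 101 and 104 counts in clone 2.9 and 2 and 0 in clone 2.10, a ratio of 105 with a 95% counting interval of 28.8 to 876. Rims2, a scaffold of the presynaptic active zone, held 151 and 117 counts against 2 and 0 (ratio 138, interval 37.8 to 1143). Wild type had both genes on, at 81 and 88 counts of Ccl28 and 97 and 112 of Rims2.

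Vax2, a homeobox gene known from the ventral eye, showed the opposite. It held 170 and 171 counts in clone 2.10 and 0 in each of the other 10 libraries of the series, wild type and foliate clones included (at least 55.3-fold higher in clone 2.10 than in clone 2.9). Requiring 0 counts in one clone and at least 50 in the other also gave 9 genes, with Gabrd and 1 predicted gene in place of Ccl28 and Rims2.

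Clustered protocadherins were called in both directions. Of 40 tested members, 9 were called higher and 12 lower in clone 2.10 (52.5%, beside 5.82% of all genes), with a median difference of 0.03. Each gamma gene has its own first exon and promoter and shares its last exons with the rest of the cluster. Within the cluster, 14 of the 17 tested gamma genes of the A and B types were called (82.4%), 6 higher and 8 lower, 13 of them by more than 2-fold. Of 20 tested beta genes, which do not share exons in this way, 3 were higher and 4 lower (35.0%), and of 3 gamma genes of the C types 0 were called, with differences between -0.08 and 0.09. None of the C types had an unadjusted p under 0.05 by edgeR, and DESeq2 and limma voom called 0 of them. No alpha gene was tested, since all 13 together held at most 31 counts in a library.

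The members exchanged places. Pcdhga11 held 228 and 188 counts in clone 2.9 and 0 and 0 in clone 2.10 (at least 71.2-fold lower), beside 54 and 43 in wild type. Pcdhga7 held 567 and 539 counts in clone 2.9 and 4 and 0 in clone 2.10, a ratio of 284 with a counting interval of 111 to 1045, and 552 and 555 in wild type. Pcdhga5 stood at 7.72 and 8.77 CPM in clone 2.9, 0.659 and 0.587 in clone 2.10 and 3.34 and 3.45 in wild type (-3.72 ± 0.22, adjusted p = 9.75e-08), and Pcdhga9 at 2.92 and 2.6 CPM in clone 2.9, 0.15 and 0.0927 in clone 2.10 and 1.75 and 1.45 in wild type (-4.48 ± 0.42). These 4 genes were low in clone 2.10, and for each of them wild type lay between the clones or at the level of clone 2.9.

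Others were high in clone 2.10. Pcdhgb4 stood at 0.896 and 0.57 CPM in clone 2.9, 20.8 and 18.3 in clone 2.10 and 2.65 and 2.98 in wild type (4.73 ± 0.21, adjusted p = 9.07e-09). Pcdhgb2 stood at 1.19 and 1.5 CPM in clone 2.9, 11.7 and 13.1 in clone 2.10 and 1.73 and 2.19 in wild type (3.20 ± 0.20), and Pcdhgb6 at 1.13 and 1.19 CPM in clone 2.9, 9.96 and 10.5 in clone 2.10 and 4.56 and 3.81 in wild type (3.14 ± 0.21). Pcdhga2 (1.45) and Pcdhga6 (1.11) were higher by less.

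Summed over the 19 gamma A and B genes in the table, the level was 46.3 and 43.5 CPM in clone 2.9, 66.5 and 66.4 in clone 2.10 and 41.3 and 42.8 in wild type. A sum therefore moved far less than most members did. With a library left out, 14 or 15 of the 21 calls remained, 11 of them in each of the 4 fits. The other gamma A and B calls, Pcdhga1, Pcdhga4, Pcdhga8, Pcdhgb5 and Pcdhgb7, had adjusted p values of 0.176, 0.249, 0.178, 0.234 and 0.0554 without 1 of the duplicates of clone 2.9. Shared exons make up 73.59% of the annotated exon length of Pcdhga11 and 50.89% of that of Pcdhga7, and the reads there cannot be assigned to 1 member.

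**Figure D3:**
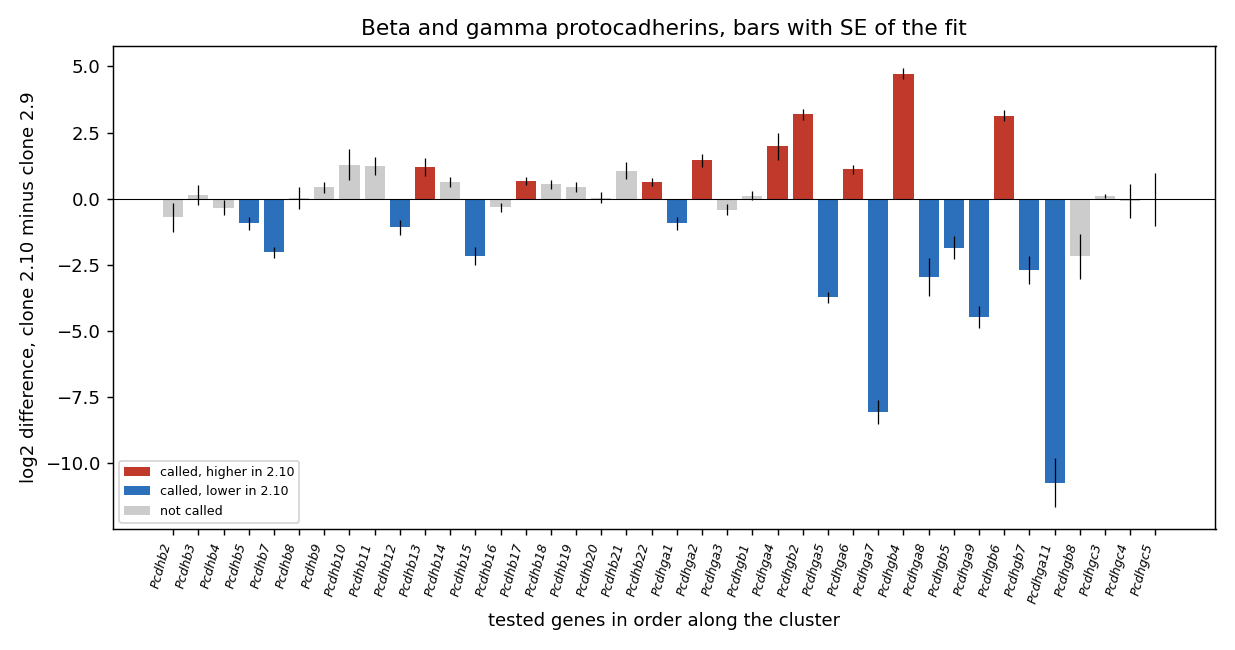
Difference between the clones (log2, clone 2.10 minus clone 2.9, bars with SE of the fit) for the 40 tested clustered protocadherins in their order along the chromosome, with called genes in color. Gamma A and B genes point in both directions, up to 4.73 for Pcdhgb4, with 3 adjacent ones (Pcdhga8, Pcdhgb5 and Pcdhga9) lower together, and the 3 gamma C genes at the right end lie near 0. The 2 longest bars, Pcdhga7 and Pcdhga11, belong to genes at or near 0 counts in clone 2.10, whose fitted size depends on the prior count.

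The foliate pair shares no library with the CVP pair. Between clones 2.5 and 2.4, 13 of the 17 gamma A and B genes were called, 11 of them also called between clones 2.10 and 2.9, and 7 of those 11 had the same sign, where the order of the foliate clones is arbitrary. Pcdhga5 was at 0.122 and 0.093 CPM in clone 2.4 and 4.76 and 4.23 in clone 2.5, so that it was low in clones 2.10 and 2.4. Pcdhgb4 was at 3.33 and 3.24 CPM in clone 2.4 and 4.12 and 3.85 in clone 2.5 and was not called there, and its CVP difference exceeded the foliate one (adjusted p of the difference = 3.22e-07).

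Among genes for saliva, which the glands under the papilla secrete, 6 of 17 tested were higher in clone 2.10 and 0 were lower (35.3%), with a median difference of 0.54. Bpifb1, a secreted protein of the BPI fold family found in mucous glands, was at 5.08 and 6.76 CPM in clone 2.9, 46.8 and 58.3 in clone 2.10 and 149 and 201 in wild type (3.15 ± 0.20, adjusted p = 2.76e-05). Its family member Bpifb5 was at 0.772 and 0.728 CPM in clone 2.9, 5.45 and 6.58 in clone 2.10 and 5.85 and 10.7 in wild type (3.0 ± 0.40, adjusted p = 0.000865). Both genes were lowest in clone 2.9, and clone 2.10 was nearer to wild type.

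Slpi, a secreted protease inhibitor, was at 294 and 356 CPM in clone 2.9, 467 and 599.6 in clone 2.10 and 278 and 281 in wild type (0.71 ± 0.12), so clone 2.10 was the highest of the 3 cultures. Ltf (lactoferrin, 0.54 ± 0.14), Dmbt1 (0.71 ± 0.15) and Clu (0.34 ± 0.07) were also called, with adjusted p values of 0.264, 0.0942 and 0.101 without 1 duplicate of clone 2.9. Ltf was at 5855 and 7335 CPM in clone 2.9 and 8352 and 10780.0 in clone 2.10, and the nearest libraries of the 2 clones were closer than the duplicates of either clone. Among the salivary products at 0 in all 4 libraries were Smr3a, Muc19 and Bpifa2.

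Genes of simple and duct epithelium went both ways, with 6 of 19 higher and 4 lower (52.6% called, beside 5.82% of all genes, median 0.16). Cldn3, a claudin of tight junctions, was at 7.06 and 7.2 CPM in clone 2.9, 27.7 and 27.4 in clone 2.10 and 62.7 and 59.9 in wild type (1.95 ± 0.08, adjusted p = 5.76e-09). Krt7, a keratin of ducts, was at 268 and 236 CPM in clone 2.9, 687 and 613 in clone 2.10 and 1002 and 959 in wild type (1.37 ± 0.08, adjusted p = 5.69e-08), and Krt8 was higher by 0.49. In Cldn3 and Krt7 wild type was highest and clone 2.9 lowest.

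Gp2, a glycoprotein of zymogen granules, was at 4.88 and 6.63 CPM in clone 2.9, 1.09 and 0.741 in clone 2.10 and 107 and 157 in wild type (-2.64 ± 0.36). Msln, mesothelin, was lower as well (-1.90 ± 0.36, adjusted p = 0.149 without duplicate 1 of clone 2.10). Without duplicate 1 of clone 2.9, 6 of the 10 calls remained. Wild type was far above both clones for Gp2 and Msln.

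Of 33 genes for gland regulation and fluid transport, 4 were higher and 3 lower (21.2%, beside 5.82% of all genes, median 0.11). Water channels moved in opposite directions. Aqp5, the apical water channel of saliva-secreting cells, was at 73.7 and 69.5 CPM in clone 2.9, 241 and 189 in clone 2.10 and 197 and 215 in wild type (1.58 ± 0.10, adjusted p = 4.91e-06). Aqp3, the channel of basal and stratified epithelium, was at 81.2 and 62.1 CPM in clone 2.9, 28.5 and 27.5 in clone 2.10 and 112 and 101 in wild type (-1.35 ± 0.15, adjusted p = 0.00107). Clone 2.10 was thus near the wild type level of Aqp5 and well below it in Aqp3. Of the 7 calls in the list, 3 remained without either duplicate of clone 2.9 or duplicate 1 of clone 2.10.

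Keratinocyte differentiation genes were called in 1 direction. Of 41 tested, 8 were lower in clone 2.10 and 0 higher (19.5%, beside 5.82% of all genes). The median was -0.35, with 34 of 41 values below 0. Sprr2a3, a small proline-rich precursor of the cornified envelope, was at 15.6 and 17.3 CPM in clone 2.9, 0.839 and 1.24 in clone 2.10 and 87.3 and 77.0 in wild type (-3.99 ± 0.17, adjusted p = 2.08e-08). Its copies Sprr2a1 and Sprr2a2 were lower too (-2.87 and -3.84), and because these genes are close copies of each other the split among them is uncertain. Sprr1a was at 984 and 1173 CPM in clone 2.9, 154 and 254 in clone 2.10 and 2955 and 2099 in wild type (-2.41 ± 0.35, adjusted p = 0.0593 without duplicate 1 of clone 2.10). For the Sprr genes wild type was highest and clone 2.10 lowest, without overlap.

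Dsc3, a desmosomal cadherin, was lower by a smaller amount, at 192 and 209 CPM in clone 2.9 and 108 and 125 in clone 2.10 (-0.78 ± 0.07). Of the 8 calls, 5 remained without duplicate 1 of clone 2.9, 4 without duplicate 2 and 5 without duplicate 1 of clone 2.10. Of 33 genes of basal and stem cells, 2 were higher and 3 lower (15.2%, median -0.02): Pdpn, podoplanin, was at 149.7 and 173 CPM in clone 2.9 and 359 and 385 in clone 2.10 (1.21 ± 0.07, adjusted p = 1.02e-07). Of these 5 calls, 2 remained without duplicate 2 of clone 2.9 and 2 without duplicate 1 of clone 2.10.

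**Figure D4:**
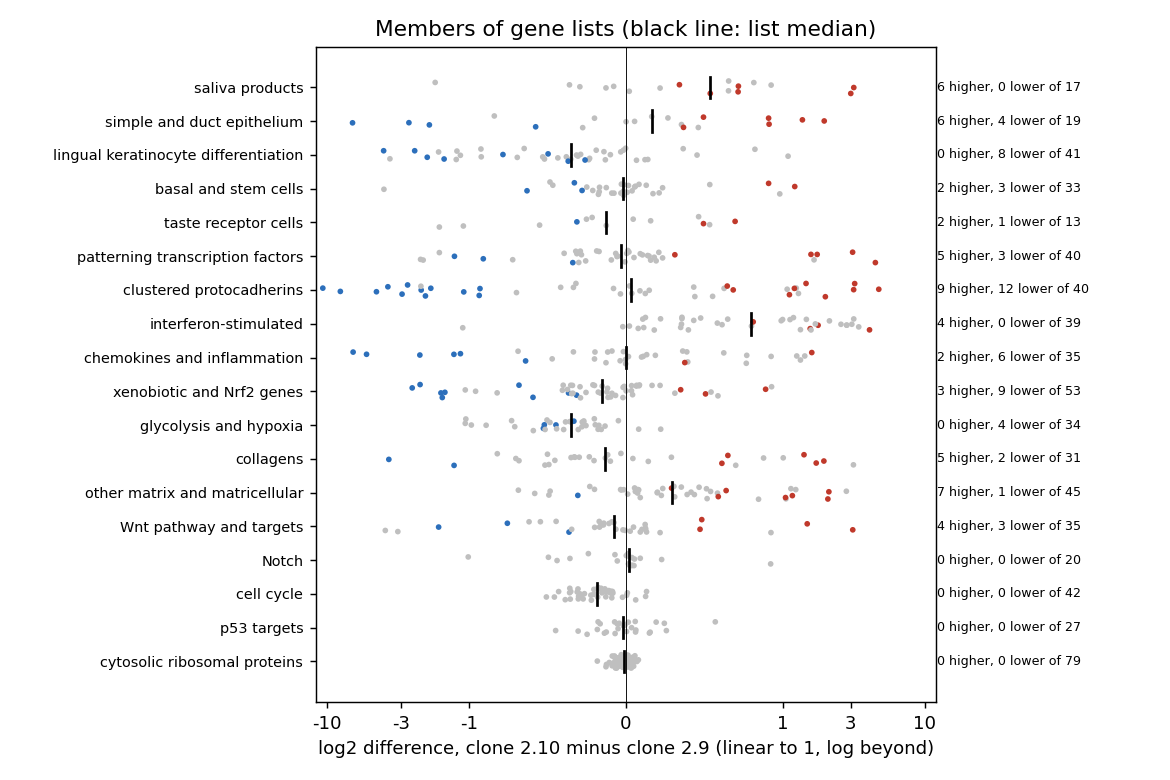
Difference between the clones (log2, clone 2.10 minus clone 2.9, axis linear to 1 and logarithmic beyond) for the tested members of 18 of the 48 gene lists, 1 point per gene, with called genes in red (higher) and blue (lower) and the list median as a black line. Saliva genes lie mostly to the right and keratinocyte and glycolysis genes mostly to the left, while cell cycle and ribosomal genes lie within 1 of 0 and hold no calls with all libraries in the fit.

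Taste receptor cell genes gave 2 higher and 1 lower of 13 tested (23.1%, beside 5.82% of all genes, median -0.13). Krt8 and Slc1a3, a glutamate transporter of supporting cells, were the higher ones (0.49 and 0.69). The taste transducin Gnat3 and the bitter receptors Tas2r105, Tas2r108 and Tas2r131 were at 0 in all 4 libraries.

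Transcription factors of tissue patterning were called in both directions, 5 higher and 3 lower of 40 tested (20.0%, beside 5.82% of all genes, median -0.03). Tbx2, a T-box factor, held 4 and 2 counts in clone 2.9, 52 and 90 in clone 2.10 and 10 and 4 in wild type (ratio 23, counting interval 10.3 to 63.8). Prrx1, a homeobox factor of mesenchyme, was at 2.29 and 1.14 CPM in clone 2.9, 5.72 and 5.73 in clone 2.10 and 25.7 and 25.5 in wild type (1.74 ± 0.21). Irx5, an Iroquois factor, was at 24.5 and 25.7 CPM in clone 2.9, 10.4 and 10.6 in clone 2.10 and 24.6 and 28.7 in wild type (-1.26 ± 0.12, adjusted p = 9.39e-06). Clone 2.10 was the lowest culture for Irx5.

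Shox2 (1.57 ± 0.29, adjusted p = 0.0948 without duplicate 2 of clone 2.9) and Msx2 (3.09 ± 0.64, adjusted p = 0.115 without duplicate 1 of clone 2.9) were higher in clone 2.10. Wild type held almost no Shox2, at 0.117 and 0 CPM against 8.37 and 6.74 in clone 2.9 and 25.1 and 19.8 in clone 2.10. Among other forkhead factors Foxf2 was higher (0.59 ± 0.10), and with Foxe1 counted the list had 2 higher and 3 lower of 23 (21.7%, median 0.09), of which 3 calls remained without either duplicate of clone 2.9 and 2 without duplicate 1 of clone 2.10.

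In signalling pathways the calls were spread over ligands, inhibitors and receptors. Of 35 Wnt genes, 4 were higher and 3 lower (20.0%, beside 5.82% of all genes, median -0.08). The ligand Wnt4 was at 6.05 and 5.84 CPM in clone 2.9, 1.48 and 2.36 in clone 2.10 and 27.4 and 28.7 in wild type (-1.63 ± 0.16, adjusted p = 1.76e-05). The secreted Wnt inhibitor Wif1 was at 15.6 and 13.7 CPM in clone 2.9, 38.7 and 43.0 in clone 2.10 and 19.7 and 23.1 in wild type (1.48 ± 0.25, adjusted p = 0.127 without duplicate 2 of clone 2.9). Nkd2, an intracellular inhibitor and Wnt target, was higher by 0.47, and the ligand Wnt5a lower by a small amount (-0.36).

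Of 35 genes of the TGF-beta and BMP pathways, 5 were higher and 1 lower (17.1%, beside 5.82% of all genes, median 0.03). Eng, Fst, Inhbb and Id2 were among the higher, and Fstl3, a follistatin-like inhibitor of activin, was lower (-1.14 ± 0.13). Of 32 FGF and EGF genes, 4 were higher and 1 lower (15.6%, median 0.07): Dusp6, a phosphatase induced by ERK, was higher (0.44 ± 0.08) and Fgfbp1, a carrier of FGFs, was at 209 and 199 CPM in clone 2.9 and 73.5 and 91.8 in clone 2.10 (-1.30 ± 0.13). Of 21 retinoic acid genes 3 were higher and 2 lower (23.8%, median 0.07), and Stra6, a retinol transporter, was lower (-0.62 ± 0.08). Of 59 axon guidance genes 7 were higher and 6 lower (22%, median -0.06), of which Ephb2 was lower (-1.02 ± 0.14) and Ntn4 and Sema3b higher (0.48 and 0.55). Those 3 are the guidance genes called in each of the 4 fits with a library left out, and between 6 and 8 of the 13 remained in any 1 fit. Of the 5 retinoic acid calls 2 remained without duplicate 1 of clone 2.9, and 3 without its duplicate 2 or without duplicate 2 of clone 2.10. Hedgehog genes gave 2 higher and 0 lower of 12 (16.7%), of which 1 remained without either duplicate of clone 2.9 or duplicate 1 of clone 2.10. Of 20 Notch genes 0 were called by edgeR, DESeq2 and limma voom, with 3 at an unadjusted p under 0.05, and 1 was higher without duplicate 2 of clone 2.10.

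Most called matrix genes were higher in clone 2.10, and Col5a2 was far lower. Of 31 collagens, 5 were higher and 2 lower (22.6%, beside 5.82% of all genes, median -0.13). Col11a1, a fibrillar collagen, was at 23.4 and 17.9 CPM in clone 2.9, 61.0 and 48.1 in clone 2.10 and 4.46 and 4.58 in wild type (1.40 ± 0.14). Col9a2 (1.71), Col1a2 (1.94) and Col8a1 (0.61) were higher, and Col25a1 was lower (-1.27). Of 45 other matrix genes, 7 were higher and 1 lower (17.8%, median 0.29), with Matn4, Nid1 (2.10), Spock2 (1.16), Matn2 (0.64) and Ltbp1 (0.59) called in each of the 4 fits with a library left out and 5 of the 8 called without duplicate 1 of clone 2.9. Of 33 matrix proteases and inhibitors, 1 was higher and 5 lower (18.2%, median -0.05), and the protease Adamts15 was at 10.2 and 7.61 CPM in clone 2.9 and 1.83 and 0.88 in clone 2.10 (-2.72 ± 0.43).

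Beside these, 2 of 10 fibroblast markers were higher and 0 lower (20.0%, beside 5.82% of all genes). The summed level of the fibroblast markers was 332 and 296 CPM in clone 2.9, 451 and 342 in clone 2.10 and 330 and 294 in wild type. Lum, Dpt and Twist2 were the fibroblast markers at 0 in all 4 libraries. Of the 10 tested, 8 had differences above 0, with a median of 0.365. In bulk libraries a change in the number of cells of a type and a change in RNA per cell cannot be told apart.

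Chemokine and inflammation genes gave 2 higher and 6 lower of 35 (22.9%, beside 5.82% of all genes, median 0.00). Il33, an alarmin stored in epithelial nuclei, was at 15.0 and 9.24 CPM in clone 2.9, 2.01 and 3.23 in clone 2.10 and 20.6 and 23.7 in wild type (-2.21 ± 0.30, adjusted p = 0.00247). Il1rl2, the receptor of IL-36 cytokines, was at 23.2 and 23.1 CPM in clone 2.9, 6.14 and 7.21 in clone 2.10 and 14.4 and 15.2 in wild type (-1.79 ± 0.10, adjusted p = 1.02e-07). Both were lowest in clone 2.10. Of the 8 calls, 4 remained without duplicate 1 of clone 2.9 and 5 without duplicate 1 of clone 2.10. In antigen presentation 4 of 21 were higher and 1 lower (23.8%, median 0.11). The neighbouring immunoproteasome subunits Psmb8 and Psmb9 went opposite ways, Psmb8 from 2.78 and 2.31 to 8.24 and 7.47 CPM (1.62 ± 0.19) and Psmb9 from 3.68 and 4.38 to 1.72 and 1.16 CPM (-1.48 ± 0.21). In wild type Psmb8 was at 7.77 and 7.66 CPM and Psmb9 at 9.14 and 7.71, and 14.73% of the exon length of Psmb8 overlaps other genes. Without duplicate 1 of clone 2.9, 3 of the 5 calls remained.

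Interferon-stimulated genes rested on 1 library. Their median difference was 0.80, with 4 of 39 called higher and 0 lower (10.3%, beside 5.82% of all genes). However, 34 of the 39 had their highest value of the 4 libraries in duplicate 1 of clone 2.10. Ifit1, a classical target, held 52 and 82 counts in clone 2.9 and 924 and 58 in clone 2.10 and was not called (2.81 ± 1.19, adjusted p = 0.297). Without that duplicate the median was 0.06 and 0 genes of the list were called by the quasi-likelihood test of edgeR, with 8 at an unadjusted p under 0.05. DESeq2 and limma voom were not run without that library. In Ifit1 the duplicates of clone 2.10 thus differed more than any pair of clone 2.9 and the second duplicate of clone 2.10.

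Genes of glycolysis and hypoxia gave 0 higher and 4 lower of 34 (11.8%, beside 5.82% of all genes). These genes had a median of -0.35 and 32 of 34 values below 0. Their summed level was 14460 and 14170 CPM in clone 2.9, 10670 and 11400 in clone 2.10 and 20260 and 18790 in wild type, without overlap. The calls were Ldha, Pgam1, Pfkp and Egln1, with differences of -0.33, -0.45, -0.53 and -0.52. Leaving out 1 library left between 0 and 1 of them called. Car9, a marker of hypoxia, was at 85.1 and 74.9 CPM in clone 2.9 and 37.8 and 48.6 in clone 2.10 and was not called (adjusted p = 0.114).

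Xenobiotic and Nrf2 genes gave 3 higher and 9 lower of 53 (22.6%, median -0.15). Aldh1a7, an aldehyde dehydrogenase, was at 7.55 and 5.38 CPM in clone 2.9, 2.68 and 1.98 in clone 2.10 and 12.3 and 10.8 in wild type (-1.47 ± 0.18). The carboxylesterases Ces1d (-1.57) and Ces1f (-2.50) were lower as well, with adjusted p values of 0.0544 and 0.059 without duplicate 1 of clone 2.10, and belong to a family of similar copies. Of the 12 calls, 6 remained without duplicate 1 of clone 2.10. Of 36 genes of cholesterol and fatty acid synthesis 2 were higher and 0 lower (5.56%, beside 5.82% of all genes). The higher ones were the desaturases Fads1 (0.67 ± 0.07) and Fads2 (0.44 ± 0.06). The list median was -0.18, with 26 of 36 values below 0. Highest values lay in duplicate 1 of clone 2.9 for 23 of the 36 and in duplicate 1 of clone 2.10 for 10. Duplicate 2 held the highest value for 1 gene in clone 2.9 and 2 in clone 2.10. The part of duplicate number was not tested.

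The quasi-likelihood test of edgeR called 0 of 42 cell cycle genes (median -0.19), 0 of 27 p53 targets, 0 of 79 cytosolic ribosomal proteins and 0 of 55 nuclear genes of the respiratory chain, where 3, 4, 0 and 2 had an unadjusted p under 0.05. Of the 42 cell cycle genes, 37 had values below 0. DESeq2 called 3 p53 targets and 0 in the other lists, and limma voom 0 in all 4. With 1 library left out the first 2 lists did hold calls: without duplicate 1 of clone 2.10, 5 cell cycle genes were lower (median -0.49) and 2 p53 targets higher. Without duplicate 2 of clone 2.9, 1 cell cycle gene was lower (median -0.40) and 1 p53 target higher, and without duplicate 2 of clone 2.10, 1 p53 target was higher and 2 were lower (cell cycle median 0.05). Without duplicate 1 of clone 2.9 neither list held a call, and the cell cycle median was 0.06. Of 12 mitochondrially encoded genes 2 were lower and 0 higher, mt-Nd1 (-0.37) and mt-Nd2 (-0.32), with adjusted p values of 0.178 and 0.157 without duplicate 1 of clone 2.9. The share of mitochondrial genes called was 16.7%, beside 5.82% of all genes, and all 12 values were below 0 (median -0.21). Cell cycle genes differed more between duplicates. Their highest value was in duplicate 1 of clone 2.9 for 36 of 42 and in duplicate 1 of clone 2.10 for the other 6. Leaving out 1 library leaves the duplicate numbers uneven between the clones, so the cell cycle medians of those fits cannot separate clone from duplicate number. Top2a, a topoisomerase of dividing cells, was at 63.9 and 39.9 CPM in the duplicates of clone 2.9 and 51.9 and 34.1 in those of clone 2.10. Of the 79 cytosolic ribosomal proteins, 52 were highest in duplicate 2 of clone 2.10, 26 in duplicate 2 of clone 2.9 and 1 in its duplicate 1.

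Along the genome no chromosome was shifted as a whole. The median difference of the 20 chromosomes with at least 100 tested genes lay between -0.017 and 0.020. Calls were most frequent on chromosome 18 (44 of 400, 11%), where the protocadherins lie, and the share was 6.41% without them. Chromosome 19 followed with 44 of 503 (8.75%). Where at least 3 neighbouring tested genes were called in the same direction, 8 runs were found, the longest of 4 genes.

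That run lies on chromosome 4 (155384980 to 155470858, GRCm38) and was higher in clone 2.10. It holds Gabrd, a GABA receptor subunit, at 0 and 0 CPM in clone 2.9 and 1.2 and 1.31 in clone 2.10, a predicted gene, Cfap74, a gene of cilia, at 0.0927 and 0.19 CPM in clone 2.9 and 1.69 and 1.76 in clone 2.10, and Tmem52 (1.75 ± 0.39, adjusted p = 0.151 without duplicate 1 of clone 2.9). On the X chromosome Armcx6, Armcx3 and Armcx2 were higher together, and Armcx2 was at 0.988 and 0.76 CPM in clone 2.9, 7.39 and 5.1 in clone 2.10 and 10.9 and 13 in wild type. The call of Armcx3 was lost without duplicate 1 of clone 2.9 (adjusted p = 0.174). On chromosome 19 Fads3, Fads2 and Fads1 were higher by 0.48, 0.44 and 0.67, and on chromosome 11 Asgr1 was at 6.79 and 6.85 CPM in clone 2.9 and 0.764 and 0.788 in clone 2.10. The remaining runs were Slpi with Matn4 and Rbpjl, the genes Ces2e, Ces2f and Ces2g, the Sprr2a genes and the gamma protocadherins Pcdhga8, Pcdhgb5 and Pcdhga9. Of these, the calls of Rbpjl (adjusted p = 0.156 without duplicate 2 of clone 2.9), Ces2f (0.215 without duplicate 1 of clone 2.10), Pcdhga8 and Pcdhgb5 (0.178 and 0.234 without duplicate 1 of clone 2.9) were lost.

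Set beside wild type, clone 2.9 was the middle culture in more of the called genes than clone 2.10. Of the 932 genes, clone 2.9 lay between clone 2.10 and wild type in 440 (47.2%), clone 2.10 lay between clone 2.9 and wild type in 171 (18.3%) and wild type lay between the clones in 321 (34.4%). Over all 16015 genes the same shares were 48.1%, 38.8% and 13.1%, and a wider gap between the clones leaves more room for wild type to fall inside it. Among the 342 genes with more than a 2-fold difference the shares were 38.3%, 13.2% and 48.5%. Clone 2.9 was in the middle for Sdk2 and Matn4, clone 2.10 for Bpifb1 and Krt7, and wild type for Tmc4 and Dkk3.

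The foliate clones 2.5 and 2.4 differed in 1230 of the same 16015 genes (7.68%). The 2 pairs had 301 called genes in common, 32.3% of the calls between clones 2.10 and 2.9 and 24.5% of those between clones 2.5 and 2.4. The sign was the same in 162 of the 301 and opposite in 139. Without duplicate 1 or 2 of clone 2.4 the foliate count was 513 and 636, and without duplicate 1 or 2 of clone 2.5 it was 639 and 512. The difference between the pairs was itself called for 960 genes (5.99%), or 617 without duplicate 1 of clone 2.9, 608 without duplicate 1 of clone 2.4 and 542 without duplicate 2 of clone 2.5, and 472 of the 932 genes (50.6%) were among them. With the foliate clones taken in the other order these counts were 1222 and 525 (56.3%), and 184 of the 932 genes were called in both orders. Cldn3, at 0.122 and 0.248 CPM in clone 2.4 and 13.5 and 14.6 in clone 2.5, differed more between the foliate clones than between the CVP clones (adjusted p of the difference = 7.24e-09).

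**Figure D5:**
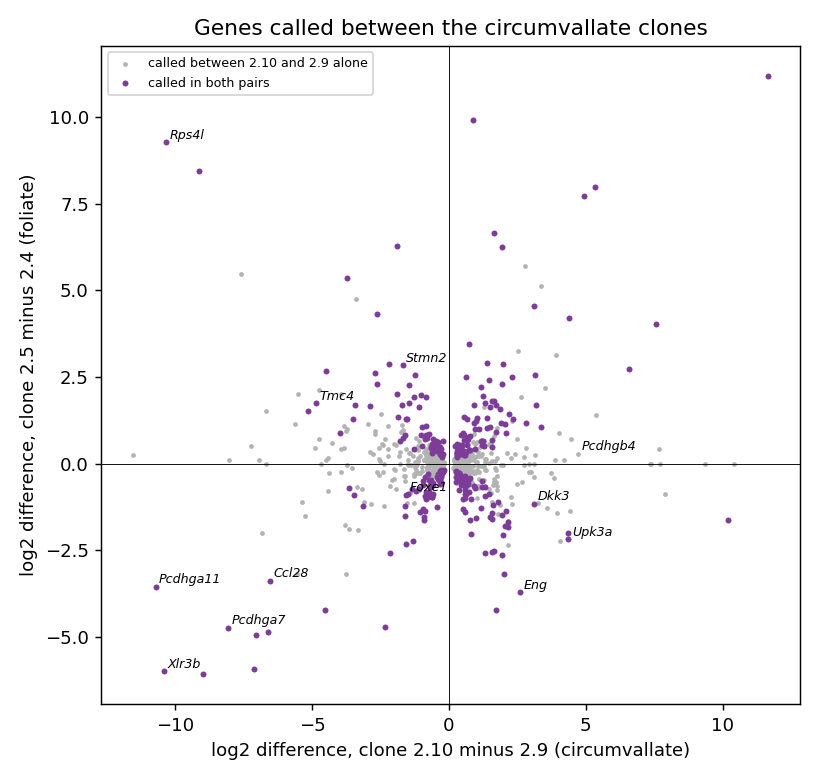
Difference between foliate clones 2.5 and 2.4 (log2, vertical) against that between circumvallate clones 2.10 and 2.9 (horizontal) for the 932 genes called between the latter, with the 301 genes called in both pairs in purple. The purple points occupy all 4 quadrants, 162 with the same sign and 139 with opposite signs, and many large circumvallate differences lie on the horizontal axis.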

How the data were processed

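RNA was prepared with a Qiagen kit and made into poly(A)-selected stranded TruSeq libraries, per the labels' protocols. The authors deposited 1 table of raw counts (55367 genes, 12 libraries) made with STAR, featureCounts and hg38, per the submitters' processing notes, which give no versions. The symbols are mouse symbols, and 97.9% of the tested genes matched 1 gene of GENCODE M21 (GRCm38). Whether counting used strand is not stated in these sources. Overlapping genes, antisense genes and close copies are therefore uncertain. The excess of low even counts (7017 values of 2 against 6781 of 1 and 2198 of 3 in the 4 libraries) may make counting intervals too narrow.

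TMM scaling and the robust quasi-likelihood fit used edgeR 4.0.16 in R 4.3.3, on all 12 libraries in 6 groups, with 6 residual degrees of freedom and Benjamini-Hochberg adjustment over the 16015 genes. SE is the log2 difference over the root of its F statistic. The 4 libraries held 61561428 to 64493571 counts, and CPM are relative to the TMM-scaled library size. Alternatives used DESeq2 1.42.0, limma 3.58.1 (voom), other filters, fewer libraries, a replicate block and each library left out. The edgeR fit was tested on simulated data. The members and the 48 lists were chosen with earlier results of these data known. Named are Foxe1, the 12 largest called differences in each direction (mean log2 CPM of at least 2, no overlap), genes near 0 in 1 clone, and list members, up to 5 called in each direction. Members of runs of neighbouring genes and close copies of named genes were named after their values were seen. Predicted genes were counted, not named, and some genes that the rule names are not reported here. A clone with 0 counts was given a floor of 3 counts per library, and 95% counting intervals cover counting error only. Promoter windows are from RefSeq (GRCm38.p6), and 11193 tested genes matched.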

Additional observations from a re-analysis of the deposited data

Results flagged for a closer look

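The difference between clones 2.10 and 2.9 itself differed from that between foliate clones 2.5 and 2.4 in 960 genes, by the interaction contrast of the edgeR quasi-likelihood fit at an adjusted p under 0.05. Among the 24 genes with the largest differences, 9 were called in both pairs with opposite signs. The values below are log2 differences of the CVP pair minus the foliate pair. Because the 9 genes were picked by their opposite signs, large values were fixed by that choice and are not a test of the lines. The order of the foliate clones is arbitrary, and with it turned, an alternative added after seeing the data, 1222 genes were called and the 9 genes shared the sign of the CVP difference in both pairs. They were 6.54 for Upk3a, 4.25 for Dkk3, 6.32 for Eng and 3.87 for Sulf1, which were higher in clone 2.10 and lower in clone 2.5. They were -6.59 for Tmc4, -4.88 for Sprr2a3, -4.94 for Galnt6, -3.40 for Padi4 and -4.54 for Stmn2, which were lower in clone 2.10 and higher in clone 2.5. With the order turned the values were 2.19, 1.94, -1.10, 0.26, -3.11, -3.09, -0.35, 0.00 and 1.15 in the sequence above, and Sulf1, Galnt6, Padi4 and Stmn2 were not called (adjusted p = 0.643, 0.140, 0.995 and 0.203). Groups held 2 libraries each, too few for a test of outlying samples.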

How the results depend on the processing

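The count of 932 genes called between the clones was 1741 with no filter beyond 1 count, 113 when tested against a 2-fold change, 416 with the 4 libraries alone and 560 to 1039 with each library of the clones left out. Summed over the 48 lists, 196 calls became 452, 26 and 130 under the first 3 of these and 120 to 236 with a library left out. The count of 932 stayed within 1.5 times under the other alternatives run (664 to 1242, with 1242 by DESeq2). With duplicates sharing only a number, a replicate block over all libraries gave 912 calls. A replicate block for the 2 CVP clones only, in the fit of all 12 libraries and added after seeing the data, gave 1417. Deviations of same-numbered duplicates correlated at 0.14 between clones 2.9 and 2.10 and at -0.08 to 0.08 between the other pairs of groups, or at 0.50 and at -0.24 to 0.30 over the 10821 genes of higher level. The labels do not say what a shared number marks. The foliate count of 1230 was 512 to 639, and the count of 960 was 542 to 1129, with each library left out, and 1222 with the foliate order turned. Wild type lay between the clones in 34.4% and below both in 30.8% of the called genes, and in 48.5% and 19.6% of those with more than a 2-fold difference. With a filter of 100 counts the medians of chromosomes 9, 12 and 13 were -0.001, -0.004 and -0.005. Foxe1 kept its call throughout (-1.66 to -1.45). None of the 3755 values of 222 named results under an alternative reversed, and 635 fell short of the threshold; for the 24 largest differences 16 of 408 did, 7 of them in the test against a 2-fold change. The cause was not tested. Counts under about 10 per library were too few to test.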

Other observations

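The lists not yet described are given here, several of them with shares above that of all genes. Of 28 cadherins and other adhesion genes outside the clusters, 4 were higher in clone 2.10 and 3 lower (25%, beside 5.82% of all genes). Alcam, an immunoglobulin-type adhesion molecule, was at 191 and 201 CPM in clone 2.9, 142 and 133 in clone 2.10 and 350.1 and 396 in wild type (-0.52 ± 0.08), and it was the 1 call of this list that held in each of the 4 fits with a library left out. Of 11 clade B serpins, 1 was higher and 2 lower (27.3%): the protease inhibitor Serpinb6b was at 15.1 and 20.3 CPM in clone 2.9 and 32.7 and 36.2 in clone 2.10 (0.96 ± 0.14), and Serpinb1a at 53.9 and 54.7 CPM in clone 2.9 and 29.3 and 37.6 in clone 2.10 (-0.70 ± 0.12). Of 16 cell cycle inhibitors and senescence genes, 1 was higher and 2 lower (18.8%), the latter being Cdkn2c (-0.58) and Rb1 (-0.36). Sox factors gave 1 higher and 1 lower of 12 (16.7%), of which Sox8, the higher one, was lost without duplicate 2 of clone 2.9 or duplicate 1 of clone 2.10. Hox genes gave 1 higher of 2, Hoxb3, whose call was lost in each of the 4 fits with a library left out (adjusted p = 0.0849 to 0.221).

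Of 43 imprinted genes, 0 were higher and 2 lower (4.65%), of which Slc38a4 was called in 1 of the 4 fits with a library left out. Plagl1, a paternally expressed zinc finger gene, was at 14.0 and 14.9 CPM in clone 2.9, 8.27 and 9.08 in clone 2.10 and 6.78 and 6.82 in wild type (-0.74 ± 0.12). Xist, the RNA of X inactivation, was at 461 and 394 CPM in clone 2.9 and 266 and 308 in clone 2.10 (-0.57 ± 0.12, adjusted p = 0.158 without duplicate 1 of clone 2.10), the 1 call among 7 tested X inactivation and Y-linked genes. Myoepithelial genes gave 2 higher of 13, among them Acta2, smooth muscle actin, at 65.1 and 57.7 CPM in clone 2.9 and 199 and 245 in clone 2.10 (1.86 ± 0.39), whose call was lost in each of the 4 fits with a library left out, with an adjusted p of up to 0.213. Shares called were 14.3% of the X inactivation and Y-linked genes and 15.4% of the myoepithelial genes, beside 5.82% of all genes. The insulin-like growth factor list gave 1 higher of 17 (5.88%) and the amino acid response list 1 lower of 22 (4.55%), both near the share of all genes. Nerve and glia markers gave 1 lower of 9 (11.1%). Each of these 3 calls (Igf2bp2, Psat1 and Stmn2) remained in 1 of the 4 fits with a library left out.

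The edgeR test called 0 of 29 endoplasmic reticulum folding genes, 0 of 23 immediate early genes, 0 of 6 immune markers, 0 of 3 skeletal muscle markers and 0 of 4 histones, where 9, 4, 2, 0 and 0 had an unadjusted p under 0.05. DESeq2 called 2, 0, 1, 0 and 0 of them, and limma voom 1 immune marker. With a library left out edgeR called 0 in these lists, except 1 immune marker lower without duplicate 2 of clone 2.10.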
